A study of Mus musculus with 16 samples.

Results

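The interferon response genes examined here are 34 genes, of the 20730 listed in every library, that are known to be induced by interferons. They were chosen by name from a fixed list, with earlier results of these data known, and all 34 were listed in all 16 libraries. The mice were adult C57BL/6N animals whose whole striata were taken, 8 in all. PMCA mice (n = 4) had received a RiboTag adeno-associated virus (AAV), which gives astrocytes a hemagglutinin-tagged ribosomal protein Rpl22, together with an AAV for hPMCA2w/b, a human plasma membrane pump that exports calcium and lowers calcium signals. Control mice (n = 4) had received the same RiboTag AAV with an AAV for a control protein. Each mouse gave an IP library, made from RNA bound to the tagged ribosomes, and an input library, made from RNA of the cleared lysate. Every mouse thus carried virus in its striatum, no library comes from a mouse without virus, and the labels do not say which promoter drives each transgene.

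Interferons are secreted proteins that act on neighbouring cells through receptors linked to the JAK kinases. Type I interferons lead to a complex called ISGF3, which includes STAT2 and IRF9 and binds the interferon-stimulated response element (ISRE) in promoters, while interferon gamma acts through the gamma-activated site (GAS). The induced genes sense viral RNA, degrade it or block its translation, and increase antigen presentation; astrocytes are among the brain cells that can mount this response.

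The promoter sequences below are shown because they carry the elements through which these transcription factors act on several of the genes whose values follow. They come from the RefSeq table of the GRCm38.p6 assembly, which holds 250 bases before to 50 bases after a gene's start. Of the 34 genes, 27 had such a window, and Dhx58, Ifi27l2a, Mx1, Parp14, Parp9, Rtp4 and Usp18 did not. Each stretch runs 5′ to 3′ on the gene's own strand, and capitals mark matches to the ISRE letters GAAANNGAAA (on the opposite strand TTTCNNTTTC) or, for Irf1, to the GAS letters TTCNNNGAA.
Isg15, chr4:156200850-156200921 (minus strand): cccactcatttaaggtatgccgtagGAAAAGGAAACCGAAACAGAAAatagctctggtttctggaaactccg
Ifit1, chr19:34640760-34640838 (plus strand): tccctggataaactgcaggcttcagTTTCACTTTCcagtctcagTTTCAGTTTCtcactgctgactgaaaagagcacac
Ifit3, chr19:34583348-34583441 (plus strand): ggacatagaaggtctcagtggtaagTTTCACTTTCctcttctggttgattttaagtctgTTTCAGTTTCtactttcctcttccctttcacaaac
Rsad2, chr12:26456538-26456597 (minus strand): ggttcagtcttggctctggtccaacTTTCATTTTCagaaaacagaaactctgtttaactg
B2m, chr2:122147523-122147582 (plus strand): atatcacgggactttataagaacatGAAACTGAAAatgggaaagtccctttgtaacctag
Irf1, chr11:53769899-53769957 (plus strand): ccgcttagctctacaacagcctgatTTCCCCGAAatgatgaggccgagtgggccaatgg

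Isg15 held 3 ISRE matches that overlap one another, 78, 72 and 66 bases before the start. Ifit1 held 2 matches, 104 and 85 bases before its start, both on the opposite strand. An ISRE match lay in 13 of the 27 windows (48.1%), those of B2m, Bst2, Ddx58, Eif2ak2, Ifih1, Ifit1, Ifit3, Ifitm3, Isg15, Oas1a, Rsad2, Stat2 and Trim30a, and in a window of 3.99% of all 27025 genes of the table. A GAS match lay in 8 of 27 (29.6%), those of Bst2, Eif2ak2, Ifi35, Ifit2, Ifitm3, Irf1, Oas1a and Samhd1, against 9.55% of all genes. A match describes letters only, and no binding was measured here.

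The 34 genes lie on 14 chromosomes of the same assembly, and some are neighbours. Psmb9 and Tap1 lie next to each other on chromosome 17, Rsad2 and Cmpk2 are 12664 bp apart on chromosome 12, Ifit2 and Ifit3 are 6584 bp apart on chromosome 19, and Dtx3l and Parp9 overlap on chromosome 16. In all, 14 of the 34 overlap another annotated gene, among them Ifit1 with Ifit1bl1 and Ifi27l2a with Ifi27. Reads of such pairs, and of close relatives of Ifit1, Ifit3, Oas1a and Trim30a, may have been split or shared, since the counting of such reads is not given. Mx1 is annotated as a transcribed pseudogene.

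Libraries held 48.1 to 55.1 M reads in PMCA IP, 46.8 to 58.5 M in control IP, 32.3 to 40.9 M in PMCA input and 33.1 to 40.2 M in control input. Every one of the 34 genes had at least 197 reads in each library, the lowest count being that of Mx1 in an input of the PMCA mice. The tagged gene Rpl22 averaged 8.11 ± 0.108 log2 CPM (SD, n = 4) in PMCA IP against 9.80 ± 0.147 in control IP, and 6.71 ± 0.0860 in PMCA input against 7.60 ± 0.137 in control input, so treatment and the amount of Rpl22 RNA cannot be told apart. Atp2b2, the mouse gene of the pump, averaged 9.87 ± 0.200 log2 CPM in PMCA IP against 9.52 ± 0.271 in control IP, and whether reads of the human transgene reach it was not tested. All 20 astrocyte markers passed the test as higher in IP than in input in both treatments. Their median log2 fold was 3.02 in PMCA mice and 3.05 in control mice. Of 20 microglial markers, 19 passed as lower and 1, Sall1, as higher in both treatments. Some markers of other cells were higher in IP too. Of 9 ependymal and choroid plexus markers, 7 were higher in each treatment, with a median of 2.16 in both, and 2 were lower in PMCA mice and 1 in control mice. Of 12 oligodendrocyte markers, 9 were higher and 0 lower in PMCA mice, and 5 higher and 1 lower in control mice. Libraries of 3 mice stood apart in the interferon response genes. Those of PMCA 3, PMCA 4 and control 4 lay above the other libraries of their group in most of the 34, as described below. Treatment results of the 34 are given with and without these mice. Those of the related lists and of the markers are given with all mice only.

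IP libraries held relatively more RNA of interferon response genes than inputs did. In PMCA mice, 31 of 34 genes were higher in IP and 1 was lower, where 37.4% of all genes tested were higher and 39.3% lower. In control mice the counts were again 31 higher and 1 lower, where 39.1% of all genes were higher and 38.4% lower. The calls are from limma's moderated test with Benjamini-Hochberg adjustment over all genes tested, at 0.05. The rise was at least 2-fold for 28 of 34 in PMCA mice (16.5% of all genes) and for 28 of 34 in control mice (16.6%). The median log2 fold of the 34 was 1.67 in PMCA mice and 1.72 in control mice, where all genes tested had -0.04 in PMCA mice and 0.00 in control mice. Scaling by total reads, without the authors' factors, lowered the median of all genes to -0.35 in PMCA mice and -0.28 in control mice and that of the 34 to 1.36 in PMCA mice and 1.45 in control mice. That scaling left 30 of the 34 higher in each treatment. Over all genes, the share of calls that were higher was then 32.6% in PMCA mice, where the deposited scaling gave 48.8%, and 34.9% in control mice, where it gave 50.5%. The makeup of the tagged cells and the loading of an RNA on ribosomes cannot be told apart in an IP library, and neither can fewer cells of a type and less RNA per cell in these bulk libraries.

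**Figure D1:**
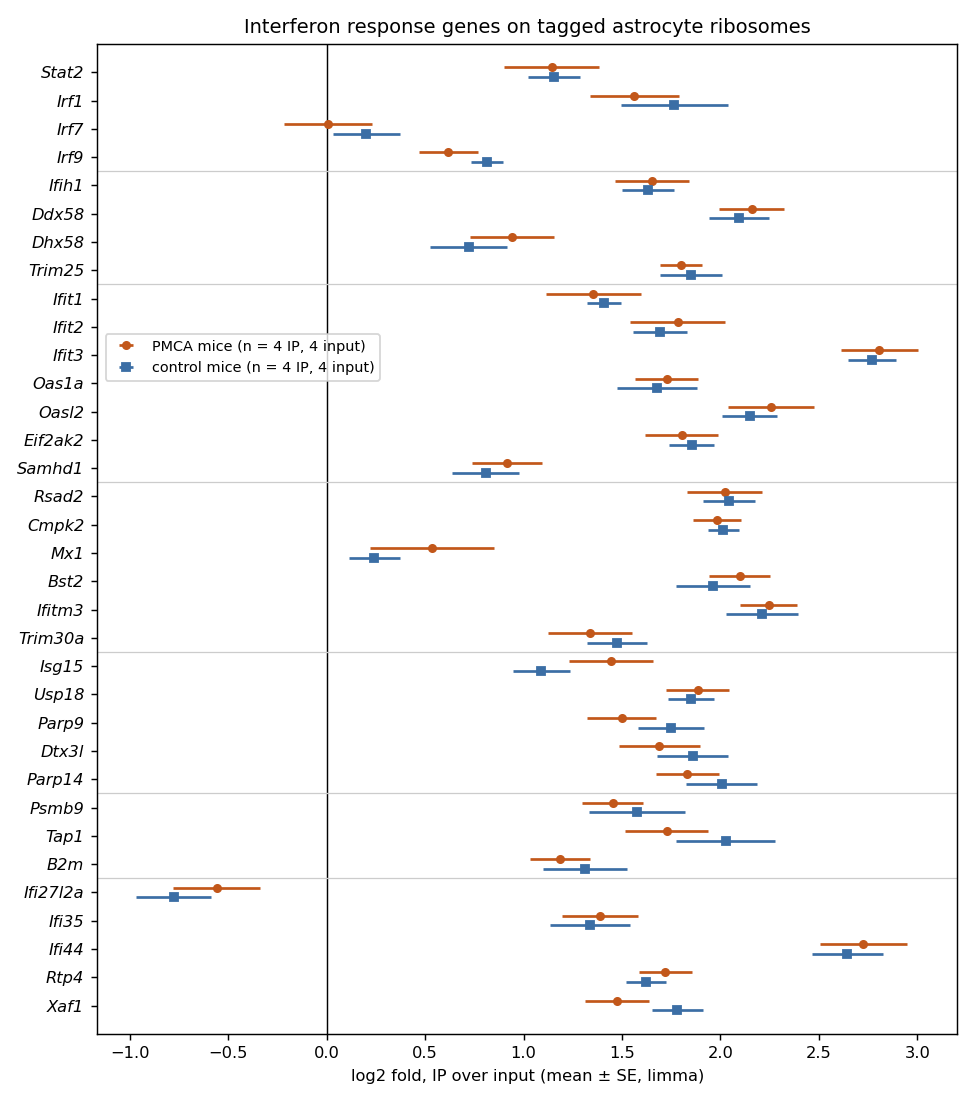
Log2 fold of IP over input (x axis) for each of the 34 genes (y axis), with its standard error from limma; circles are PMCA mice and squares control mice, 4 IP and 4 input libraries each, and grey lines part the groups of roles. Ifit3 and Ifi44 lie farthest to the right in both treatments, Irf7 and Mx1 lie nearest to 0, and Ifi27l2a is the 1 gene left of 0.

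Ifit3, an RNA-binding effector that in human cells stabilises IFIT1, had the highest ratio. It had 9.07, 9.17, 9.50 and 9.81 log2 CPM in the IP libraries of PMCA mice 1 to 4, against 6.22, 6.32, 6.79 and 6.995 in their inputs. In control mice 1 to 4 it had 9.44, 9.76, 9.81 and 9.79 in IP, against 6.95, 6.86, 6.66 and 7.26 in input. All IP libraries lay above all inputs. The log2 fold was 2.81 ± 0.197 (SE) in PMCA mice (limma, adjusted p = 3.55e-07) and 2.77 ± 0.124 in control mice (adjusted p = 8.36e-09). Ifi44, another induced gene, followed with 2.73 ± 0.220 in PMCA mice and 2.65 ± 0.181 in control mice.

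Ifi27l2a, a small interferon-induced protein, was the 1 gene that was lower in IP. It had 3.37, 3.35, 3.82 and 4.45 log2 CPM in the IP libraries of PMCA mice 1 to 4, against 4.12, 4.25, 4.26 and 4.60 in their inputs, and 3.42, 3.90, 3.92 and 4.49 in those of control mice 1 to 4, against 4.50, 4.81, 4.59 and 4.94. Each mouse had less in its IP than in its input, although PMCA 4 in IP lay above 3 of the PMCA inputs. The log2 fold was -0.56 ± 0.220 in PMCA mice (limma, adjusted p = 0.0388) and -0.78 ± 0.190 in control mice (adjusted p = 0.00316). The call in PMCA mice was lost without PMCA 1, 2 or 3, and under other settings listed at the close.

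Among the transcription factors, Irf1, which is induced by interferon gamma, had a log2 fold of IP over input of 1.56 ± 0.228 in PMCA mice and 1.77 ± 0.271 in control mice. Stat2, a signal transducer of ISGF3, had 1.14 ± 0.242 in PMCA mice and 1.15 ± 0.133 in control mice, and Irf9, the subunit of ISGF3 that recognises the ISRE, had 0.62 ± 0.150 in PMCA mice and 0.81 ± 0.0805 in control mice. Irf7, which drives transcription of type I interferon genes, did not pass in either treatment. Its log2 fold was 0.01 in PMCA mice, with a 95% interval of -0.49 to 0.50, and 0.20 in control mice, with -0.17 to 0.58. The RNA sensors were higher in 4 of 4 cases in both treatments. Ddx58, also called RIG-I, had 2.16 in PMCA mice and 2.09 in control mice. Trim25, a ubiquitin ligase of the RIG-I pathway, had 1.80 in PMCA mice and 1.85 in control mice. Ifih1, also called MDA5, had 1.65 in PMCA mice and 1.63 in control mice, and Dhx58, also called LGP2, had 0.94 in PMCA mice and 0.72 in control mice. In the control mice the call of Dhx58 was lost with total-read scaling, as was that of Irf9 in the PMCA mice.

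All 7 effectors on RNA and translation were higher in IP in both treatments. Oasl2, an oligoadenylate synthetase-like protein, had a log2 fold of 2.26 in PMCA mice and 2.15 in control mice. Eif2ak2, the kinase PKR that halts translation on viral RNA, had 1.80 in PMCA mice and 1.85 in control mice. Oas1a belongs to the enzymes that make activators of RNase L and had 1.73 in PMCA mice and 1.68 in control mice. Beside Ifit3, its neighbours on chromosome 19 were higher too: Ifit2 and Ifit1 had 1.78 and 1.35 in PMCA mice, and 1.69 and 1.41 in control mice. Samhd1, which hydrolyses nucleotides that reverse transcription needs, had 0.92 in PMCA mice and 0.81 in control mice.

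Of the other antiviral effectors 5 of 6 were higher in IP in both treatments. Ifitm3, which blocks viral entry, had a log2 fold of 2.25 in PMCA mice and 2.21 in control mice. Bst2, or tetherin, which holds budding virions at the membrane, had 2.10 in PMCA mice and 1.96 in control mice. The neighbours Rsad2, or viperin, and Cmpk2, a nucleotide kinase, had 2.02 and 1.98 in PMCA mice, and 2.04 and 2.02 in control mice. Trim30a, of the TRIM family, had 1.34 in PMCA mice and 1.48 in control mice. Mx1, named for resistance to myxoviruses, did not pass, with 0.54 in PMCA mice (limma, adjusted p = 0.143) and 0.24 in control mice (adjusted p = 0.107), but with the mouse as a block it passed in PMCA mice.

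The ISG15 system, in which Isg15 is a ubiquitin-like tag and Usp18 the protease that removes it, was higher in IP in both treatments, as was the PARP9 complex. Isg15 had a log2 fold of 1.44 ± 0.212 in PMCA mice and 1.09 ± 0.144 in control mice. Usp18 had 1.88 in PMCA mice and 1.85 in control mice. The ADP-ribosyltransferase Parp14 had 1.83 in PMCA mice and 2.01 in control mice, and Parp9 and its ubiquitin ligase partner Dtx3l had 1.50 and 1.69 in PMCA mice, and 1.75 and 1.86 in control mice.

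Of the antigen presentation genes, the peptide transporter Tap1 had 1.73 in PMCA mice and 2.03 in control mice, the immunoproteasome subunit Psmb9 had 1.45 in PMCA mice and 1.58 in control mice, and B2m, the light chain of MHC class I, had 1.18 in PMCA mice and 1.31 in control mice. The remaining genes, Rtp4, Xaf1 and Ifi35, had 1.72, 1.48 and 1.39 in PMCA mice and 1.62, 1.78 and 1.34 in control mice. The 20 microglial markers summed to 167 to 218 CPM in PMCA IP against 1990 to 2427 CPM in PMCA input, and to 113 to 141 CPM in control IP against 1578 to 2350 CPM in control input, with no marker at 0 reads in all 4 libraries of a group. Their log2 folds of IP over input had a median of -4.28 in PMCA mice and -5.49 in control mice.

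Genes that are not among the 34 but act in the same pathway were followed through lists chosen with earlier results of these data known. Of 72 other interferon-stimulated genes tested, 45 were higher and 18 lower in IP in PMCA mice, and 46 higher and 17 lower in control mice. Of 17 genes of MHC class I and peptide loading, 15 were higher in PMCA mice and 17 in control mice. Of the 11 receptor and JAK-STAT genes 5 were higher and 3 lower in PMCA mice (Il10rb, Ifngr2 and Tyk2), and 5 higher and 1 lower in control mice (Tyk2). The shares that were higher lay near those over all genes given above, and the shares that were lower lay below them. Among the higher ones were the kinase Jak1, the transducer Stat3 and the type I receptor chains Ifnar1 and Ifnar2. The log2 folds of these genes in that order were 0.63, 1.65, 0.23 and 0.36 in PMCA mice, and 0.75, 1.79, 0.36 and 0.36 in control mice. Of 21 genes of nucleic acid sensing 10 were higher and 9 lower in PMCA mice, and 10 higher and 8 lower in control mice. Of 15 negative regulators 4 were higher and 6 lower in PMCA mice, and 6 higher and 8 lower in control mice, and of 7 MHC class II genes 3 were higher and 1 lower in PMCA mice, and 1 higher and 0 lower in control mice. Few reads came from the ligands. Ifnb1 had 0 to 2 reads in PMCA IP, 0 or 1 in control IP, 0 to 2 in PMCA input and 0 to 6 in control input. Ifng, the 1 ligand gene that could be tested, had 0 to 14 reads in PMCA IP, 1 to 4 in control IP, 31 to 64 in PMCA input and 10 to 52 in control input, so it was measured almost entirely in the inputs.

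The level of the 34 genes differed between mice of 1 treatment. Both PMCA 3 and PMCA 4 lay above PMCA 1 and PMCA 2 in 34 of 34 genes in IP, a pattern that 19.8% of all genes tested showed, and in 34 of 34 in input, against 25.7% of all genes. Control 4 lay above the other 3 control mice in 28 of 34 genes in IP (30.2% of all genes), the exceptions being Cmpk2, Eif2ak2, Ifit1, Ifit3, Mx1 and Rsad2, and in 33 of 34 in input (33.7%), the exception being Isg15. These are also the 3 mice whose sample titles carry animal numbers above 250, while PMCA 1 and 2 and control 1 to 3 have numbers below 250. The source name of control 4 gives a number below 250, and what the numbers stand for is not given in the labels. The pattern was found by looking at the values, so the counts describe it and test nothing.

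**Figure D2:**
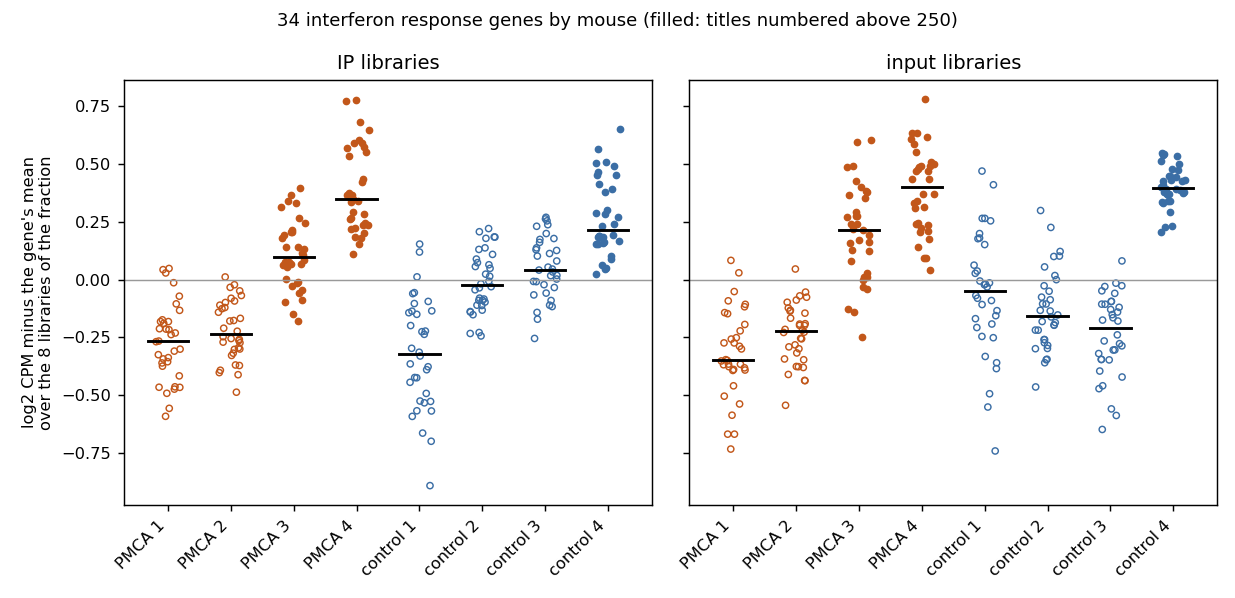
Log2 CPM of each of the 34 genes minus its mean over the 8 libraries of the fraction (y axis), by mouse (x axis), for IP (left) and input (right); each point is a gene, black bars are medians, and filled points mark mice with titles numbered above 250. The points of PMCA 3, PMCA 4 and control 4 lie mostly above 0, and those of PMCA 1 and PMCA 2 mostly below 0.

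In size, the median deviation from the group mean over the 34 genes was 0.37 log2 in PMCA 4 and 0.11 in PMCA 3 in IP, against -0.27 in PMCA 1 and -0.21 in PMCA 2. In input it was 0.37 in PMCA 4 and 0.21 in PMCA 3, against -0.35 in PMCA 1 and -0.24 in PMCA 2. Control 4 had 0.26 in IP and 0.40 in input. Control 1 was above the group mean in 0 of 34 genes in IP (50% of all genes) but in 14 of 34 in input (48.6%). Control 3 was above it in 27 of 34 in IP (48%) and in 0 of 34 in input (47.8%). In PMCA mice 1 to 4, 34, 34, 32 and 34 of the 34 genes were on the same side of the group mean in IP and input. In control mice 1 to 4 the counts were 20, 20, 7 and 34. The share of all genes on the same side was not worked out, so these counts only describe the mice. Medians over all genes tested stayed within 0.03 log2 of 0 in each of these libraries.

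The spread between mice was wider for these genes than for most. In PMCA IP the median SD over the 34 was 0.310 log2, where all genes tested had 0.143, and in control IP it was 0.231, where all genes had 0.144. In PMCA input it was 0.358, where all genes had 0.101, and in control input 0.301, where all genes had 0.120. Mx1 varied most among PMCA mice, with 2.99, 3.17, 3.65 and 4.36 log2 CPM in IP of PMCA mice 1 to 4. Ifit1 varied least among control mice in IP, with 7.77, 7.80, 7.82 and 7.80 log2 CPM, while its PMCA IP libraries had 7.06, 7.30, 7.44 and 7.95. The 4 PMCA values enclose the 4 control values.

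Several related gene lists showed the same mice high. For PMCA 3 and 4, the counts that follow stand against 19.8% of all genes in IP and 25.7% in input. For control 4 those shares were 30.2% in IP and 33.7% in input. PMCA 3 and 4 lay above PMCA 1 and 2 for 57 of 69 other interferon-stimulated genes in IP and 64 of 72 in input. They did so for 16 of 17 and 15 of 17 genes of MHC class I and peptide loading, and for 7 of 7 genes of MHC class II in both fractions. The counts were 6 of 11 and 7 of 11 for receptor and JAK-STAT genes. They were 10 of 15 and 9 of 15 for negative regulators, and 10 of 21 and 16 of 21 for nucleic acid sensing. Among markers of cell types, the count was 2 of 20 in IP and 4 of 20 in input for astrocytes, 8 of 20 and 15 of 20 for microglia, 6 of 8 and 14 of 19 for leukocytes, and 10 of 12 and 0 of 12 for oligodendrocytes. Control 4 lay above the other control mice for 52 of 69 other interferon-stimulated genes in IP and 67 of 72 in input. It did so for 17 of 17 and 16 of 17 genes of MHC class I and peptide loading, and for 7 of 7 genes of MHC class II in both fractions. The counts were 8 of 11 and 9 of 11 for receptor and JAK-STAT genes. They were 6 of 15 and 9 of 15 for negative regulators, and 9 of 21 and 19 of 21 for nucleic acid sensing. Control 4 was also above the other control mice for 13 of 20 microglial markers in IP and 18 of 20 in input, and for 12 of 12 and 9 of 12 oligodendrocyte markers. In input it was so for 16 of 19 leukocyte, 15 of 16 endothelial and 9 of 10 mural markers as well. The count for astrocyte markers in input was 8 of 20, a share near that of all genes. In input the microglial markers summed to 2427 and 2254 CPM in PMCA 3 and 4, against 1990 and 2011 in PMCA 1 and 2, and to 2350 in control 4, against 1578 to 1669 in control 1 to 3. Leukocyte markers summed to 79.8 CPM in the IP of PMCA 4, against 27.7 to 32.0 in the other PMCA IP libraries. Xist, the RNA of the inactive X chromosome, was high in PMCA 3 and control 4, with 9.11 and 4.98 log2 CPM in IP, and below 0 in IP of the other 6 mice, which include PMCA 4. Ddx3y, a gene of the Y chromosome, had -1.88 and -3.72 log2 CPM in IP of PMCA 3 and control 4, and 7.05 to 7.25 in IP of the other 6. By these genes PMCA 3 and control 4 read as female and the other 6 mice as male, so both treatments mix the sexes. The part of these differences in the pattern of the 34 genes was not tested.

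The comparison of PMCA with control mice asks whether lowering astrocyte calcium signals changes the interferon response. In IP, 0 of 34 genes were higher in PMCA mice and 1 was lower, where 9.54% of all genes tested were higher and 10.1% lower. At an unadjusted p under 0.05 there were 5 genes. The log2 folds ran from -0.39 to 0.45 with a median of 0.01, where all genes had -0.01, and 17 genes were above 0 and 17 below. The 95% interval of every one of the 34 lay within a 2-fold change in either direction.

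Irf9 was the gene that fell. It had 6.23, 6.32, 6.50 and 6.76 log2 CPM in the IP of PMCA mice 1 to 4, against 6.77, 6.86, 6.82 and 6.93 in the IP of control mice 1 to 4. All PMCA values lay below all control values, with PMCA 4 next to control 1. The log2 fold was -0.39 ± 0.105 (limma, adjusted p = 0.0283), which is 0.762 times the control level. Over 20 alternatives Irf9 stayed below 0, between -0.57 and -0.32, and passed in 12, with adjusted p from 0.00304 to 0.0780. The call was lost when any 1 of PMCA 1, 2 or 3 or control 2, 3 or 4 was left out. In input Irf9 had 5.55, 5.62, 6.11 and 6.08 in PMCA mice, against 6.09, 5.99, 5.83 and 6.23 in control mice, values that overlap, with a log2 fold of -0.19 ± 0.128 (limma, adjusted p = 0.421).

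Samhd1 had the highest log2 fold in IP. It had 5.64, 5.47, 5.99 and 6.18 log2 CPM in PMCA mice 1 to 4, against 4.90, 5.46, 5.48 and 5.64 in control mice 1 to 4, so that the groups overlap between 5.47 and 5.64. Its log2 fold of 0.45 ± 0.184 did not pass (limma, adjusted p = 0.112).

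In input, 0 of 34 genes were higher in PMCA mice (0.362% of all genes) and 0 were lower (0.0797%), by limma, with 5 genes at an unadjusted p under 0.05. The log2 folds ran from -0.55 to 0.59 with a median of 0.03, and the 95% interval lay within a 2-fold change for 33 of 34, the exception being Irf1. Irf1 had 5.36, 5.40, 6.08 and 6.26 log2 CPM in PMCA mice 1 to 4, against 4.74, 5.22, 4.89 and 5.88 in control mice 1 to 4. Only control 4 reached into the PMCA range, and the log2 fold was 0.59 ± 0.252, with a 95% interval of 0.04 to 1.15 (limma, adjusted p = 0.233). Isg15 had 3.69, 3.81, 4.21 and 4.60 in PMCA mice, against 4.82, 4.58, 4.34 and 4.78 in control mice. Only PMCA 4 reached into the control range, and the log2 fold was -0.55 ± 0.178 (limma, adjusted p = 0.144).

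**Figure D3:**
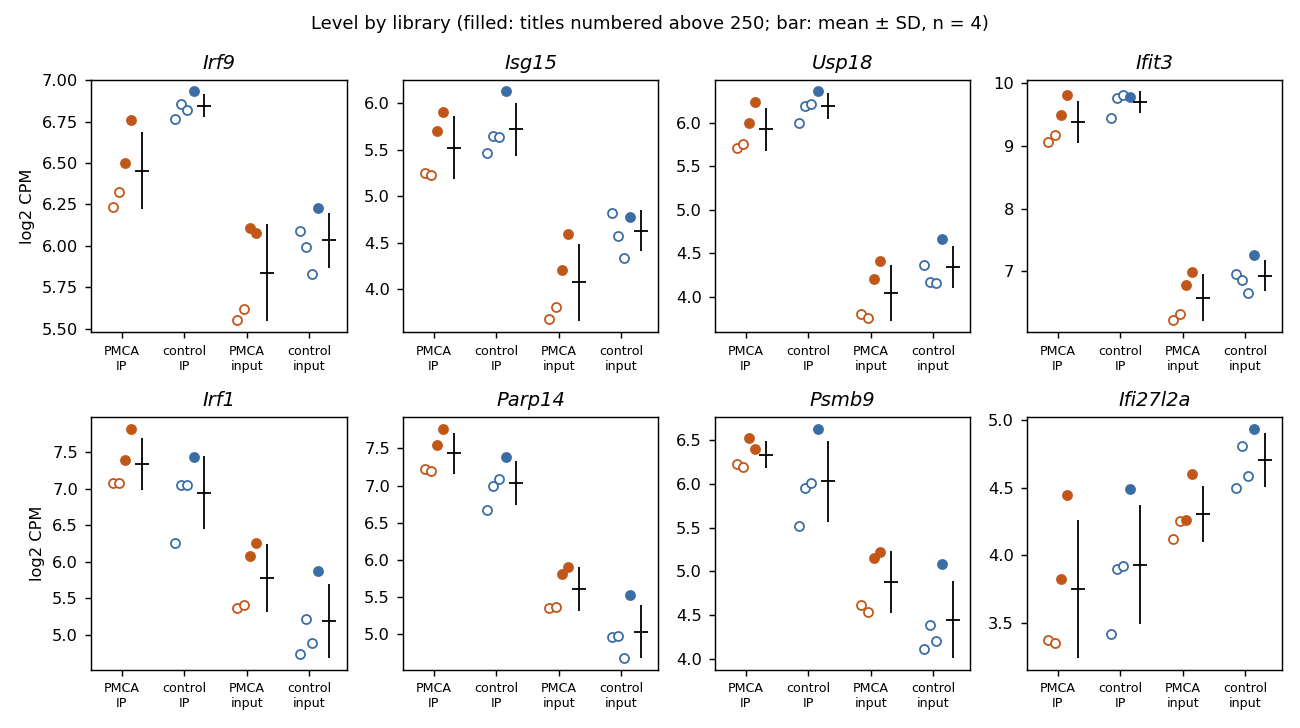
Log2 CPM (y axis) of 8 of the genes in each library, by treatment and fraction (x axis); points are libraries, filled where the title is numbered above 250, and bars are the mean ± SD (n = 4). Within each group the filled points mostly sit at the top, as for Isg15 in PMCA input, where PMCA 4 has 4.60 and PMCA 1 has 3.69.

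The PMCA effect was also compared between fractions. The difference of the effect, IP minus input, passed for 0 of the 34 genes in either direction by limma. Of all genes, 0.972% were higher and 1.06% lower. None of the 34 had an unadjusted p under 0.05, and the smallest adjusted p from limma was 0.536. The difference ran from -0.31 for Xaf1, a partner of the apoptosis inhibitor XIAP, to 0.35 for Isg15. Xaf1 had 5.37, 5.53, 5.80 and 6.07 log2 CPM in PMCA IP, against 5.70, 5.97, 6.01 and 6.21 in control IP, and 3.98, 4.01, 4.44 and 4.44 in PMCA input, against 4.07, 4.07, 4.08 and 4.54 in control input. Isg15 in IP had 5.25, 5.23, 5.70 and 5.91 in PMCA mice, against 5.47, 5.64, 5.64 and 6.13 in control mice. Both genes had overlapping groups in both fractions.

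Because the mice with numbers above 250 were high in both treatments, the fit was repeated with the animal number set as a block. That pattern was itself found by looking at the values of these genes. The adjusted p-values that follow do not account for how the block was chosen. In IP, 6 genes were then lower in PMCA mice and 0 higher, where 9.59% of all genes were lower and 10.2% higher. These were Irf9 (log2 fold -0.45), Isg15 (-0.34), Usp18 (-0.35), Xaf1 (-0.38), Irf7 (-0.41) and Cmpk2 (-0.33), with limma's adjusted p from 0.00687 to 0.0452. In input, 10 genes were lower, where 1.52% of all genes were lower, and 3 were higher, where 3.8% of all genes were higher. The lower ones were Isg15 (-0.67), Ifit3 (-0.49), Ifi27l2a (-0.47), Usp18 (-0.42), Ifitm3 (-0.40), Bst2 (-0.35), Cmpk2 (-0.30), Irf9 (-0.29), Rtp4 (-0.28) and Irf7 (-0.28), and the higher ones Parp14 (0.43), Irf1 (0.38) and Samhd1 (0.21), with limma's adjusted p from 0.00224 to 0.0429. Cmpk2, Irf7, Irf9, Isg15 and Usp18 were thus lower in both fractions, which come from the same mice.

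**Figure D4:**
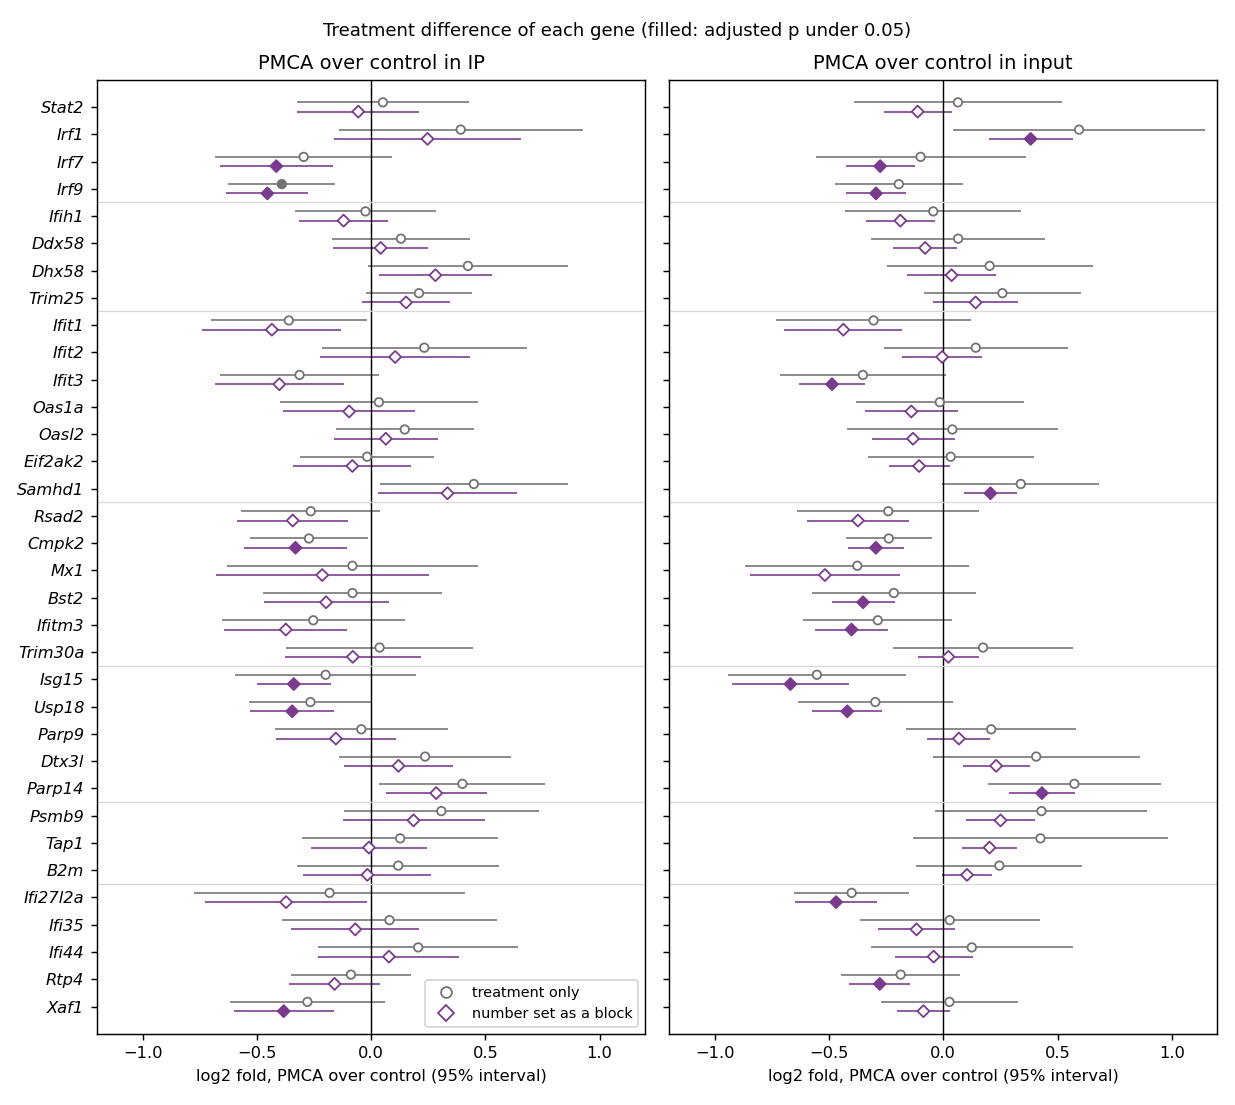
Log2 fold of PMCA over control (x axis) with its 95% interval for each of the 34 genes (y axis), in IP (left) and input (right); circles are the fit on treatment alone, diamonds the fit with the animal number set as a block, and filled symbols have an adjusted p under 0.05. Irf9 in IP is the 1 filled circle, while 6 diamonds in IP and 13 in input are filled, most of them left of 0.

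Usp18 shows what the block does. It had 5.71, 5.76, 6.00 and 6.24 log2 CPM in the IP of PMCA mice 1 to 4, against 6.00, 6.19, 6.22 and 6.36 in control mice 1 to 4, and 3.80, 3.76, 4.20 and 4.42 in PMCA input, against 4.37, 4.17, 4.16 and 4.67 in control input. Over all mice the groups overlap in both fractions. Within the lower numbers, PMCA 1 and 2 lay below control 1 to 3 in both fractions, and within the higher ones PMCA 3 and 4 lay below control 4. Parp14 ran the other way in input, with 5.34, 5.36, 5.80 and 5.90 in PMCA mice, against 4.96, 4.97, 4.67 and 5.52 in control mice, so that control 4 was the 1 control mouse inside the PMCA range.

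Within the mice numbered below 250 alone, a setting added after the values were seen, 9 genes were lower and 0 higher in IP (5.41% and 7.07% of all genes), and 10 were lower and 2 higher in input (0.35% and 2.6%). Ifit1 was among the lower ones in both, with a log2 fold of -0.62 in IP and -0.61 in input. Within the mice numbered above 250 there were 2 PMCA mice against 1 control mouse, and no test was run. The median difference of PMCA from control over the 34 genes was there -0.06 in IP and -0.09 in input. Both values rest on that 1 control mouse.

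These calls depend on where control 4 is placed and on whether it is used. With control 4 placed by its source name, the blocked fit gave 8 lower and 0 higher in IP (4.8% and 5.99% of all genes) and 1 lower, Isg15 (-0.88), and 0 higher in input (0.0429% and 0.153%). Without control 4, 0 genes were lower and 2 were higher in IP (7.88% and 9.31% of all genes), Psmb9 (0.51) and Parp14 (0.52). In input 0 were then lower and 8 higher (2.53% and 5.69%), namely B2m, Dtx3l, Irf1, Parp14, Psmb9, Samhd1, Tap1 and Trim25. Within the lower numbers with control 4 among them, 9 were lower and 0 higher in IP (6.11% and 6.66%) and 0 lower and 0 higher in input (0.0121% and 0.0182%). Without PMCA 4, 6 genes were lower and 0 higher in IP (11.5% of all genes each way), and 0 were lower and 0 higher in input (0.0304% and 0.171%). By their titles, 2 PMCA and 3 control mice are numbered below 250 and 2 PMCA mice and 1 control mouse above it.

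Among the lists of related genes, 0 of 11 receptor and JAK-STAT genes differed between PMCA and control mice in either fraction at an adjusted p under 0.05. The counts that follow stand against the 9.54% of all genes that were higher and the 10.1% that were lower in IP. Of 15 negative regulators, 2 were higher in IP, the phosphatase Ptpn1 (0.36) and Nlrc3 (0.98), and 0 lower. Of 21 genes of nucleic acid sensing, 7 were higher in IP, led by the RNA receptor Tlr7 (1.40), the DNA sensor Aim2 (1.16), the adaptor Ticam1 (0.50) and the kinase Ikbke (0.65), and 1 lower, the kinase Tbk1 (-0.27). Of 69 other interferon-stimulated genes tested in IP, 7 were higher and 3 lower, shares near or below those of all genes. The first 4 higher were Mndal (2.47), Slfn2 (1.17), Sp110 (1.64) and Lgals3bp (0.34), and the lower were the chemokine Cxcl9 (-1.84), Tdrd7 (-0.27) and Ifi27 (-0.29). In input Cxcl9 had 0.35 and Mndal 0.45, and neither passed. The difference of the PMCA effect, IP minus input, was higher for 1 of 72 genes of this list and lower for 1 (0.972% and 1.06% of all genes). These were Mndal (2.02, limma, adjusted p = 0.0181) and Cxcl9 (-2.19, limma, adjusted p = 0.0192). The counts of Mndal in IP were 46 to 65 reads in PMCA mice against 7 to 13 in control mice, and it belongs to a family of near-identical genes.

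All 7 MHC class II genes tested were higher in PMCA IP, and the list's median log2 fold was 1.25, where all genes had -0.01. That fit used all mice, without the number set as a block. All 7 also had PMCA 3 and 4 above PMCA 1 and 2 in IP, and control 4 above the other control mice. Cd74, the class II invariant chain, had 1.33 ± 0.278 (limma, adjusted p = 0.0113), Ciita, the class II transactivator, 1.27, H2-DMb1 1.25 and H2-Eb1 1.16. Of 17 MHC class I and peptide loading genes 1 was higher, H2-M3 (0.56), and 0 lower. In input 0 genes of these 6 lists passed in either direction. The median log2 fold of the MHC class II list in input was nonetheless 1.001, which is that of Ciita (limma, adjusted p = 0.0818). Cd74 had 1.10 (limma, adjusted p = 0.117) and H2-Eb1 0.96 (limma, adjusted p = 0.140) in input, close to their folds in IP. H2-DMb1 had a smaller fold in input than in IP, with 0.54 (limma, adjusted p = 0.269). The PMCA effect differed between the fractions for 0 of the 7 genes. Markers of cell types moved in the same IP comparison, where 9.54% of all genes were higher and 10.1% lower. Of 20 microglial markers 12 were higher, with a list median of 0.88, as were 5 of the 8 leukocyte and 5 of 15 endothelial markers tested. Of 5 leptomeningeal fibroblast markers 3 were higher and 1 lower, and of 9 mural markers 2 were higher and 2 lower. Of 16 neuronal markers 10 were lower. Astrocyte markers moved too, with 6 of 20 higher and 1 lower. Of 7 nuclear noncoding RNAs, 5 were higher and 0 lower in PMCA IP, with a list median of 1.15. In IP against input, 6 of the 7 were lower in PMCA mice and 6 in control mice. Leaving out Xist, the other 6 summed to 3145 to 5592 CPM in PMCA IP against 1465 to 2202 CPM in control IP. Summed microglial markers were 167 to 218 CPM in PMCA IP against 113 to 141 CPM in control IP, 2 ranges that do not overlap. The part of these markers and RNAs in the values of the pathway genes was not tested.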

How the data were processed

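RNA of 16 libraries was analysed, in 4 groups of 4. Per the labels' protocols, a stranded TruSeq kit with RiboZero removal of ribosomal RNA was used. Per the submitters' processing notes, STAR, HTSeq, edgeR and limma were used with build mm10. The sources used here give neither versions nor roles of these tools, nor the annotation, nor whether counting used strand. The authors deposited log2 CPM per gene, scaled by library factors of 0.89 to 0.92 in IP and 1.10 to 1.12 in input. Undoing the log2 scale and a prior count of 0.25 gave whole reads for every value within 0.001, from which the totals were summed.

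Each comparison was a limma 3.58.1 fit (R 4.3.3, empirical Bayes with a mean-variance trend, two-sided, Benjamini-Hochberg over all genes tested, threshold 0.05) on the deposited values of its own libraries. Genes needed 10 reads at the median library size in at least 4 libraries, and 15 reads in all; all 34 genes passed in all 5 comparisons. The fits were checked on simulated data in which genes varied independently and mice had no effect of their own. That check does not cover genes that move together by mouse, as the 34 did. IP and input of a mouse share its source name, and their deviations from the group means correlated with r of 0.15 to 0.28 in PMCA mice and 0.11 to 0.33 in control mice over 16673 genes, so the mouse was a block in an alternative. Other alternatives changed the scaling, filter, prior count, variance model, animal number set and mice included. Each group holds 4 separate mice, so p-values between treatments measure the spread between mice. The fits of IP against input, and of the difference between fractions, took both libraries of a mouse as independent. Only the alternative with the mouse as a block used the pairing.

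The 34 genes and all lists were chosen with earlier results of these data known. Values per library are given for genes that passed between treatments and for the highest and lowest gene of each comparison, and up to 4 genes a direction by adjusted p are named from other lists. Mx1, Ifit1, Usp18 and Parp14 were added after their values were seen, as were the receptor genes in the comparison of IP with input.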

Additional observations from a re-analysis of the deposited data

Results flagged for a closer look

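In each group of 4 libraries, the gap of the highest or the lowest library to its nearest neighbour was set against the whole range of the group (Dixon's ratio, read against its 95% critical value for 4 samples). Of 136 group values of the 34 genes, 5 passed, and chance gives about 1 in 20 such passes. Control 1 was the lowest in IP for Ifit3, at 9.44 log2 CPM with a ratio of 0.870, and for Cmpk2, at 7.84 with a ratio of 0.837. Control 4 was the highest in input for Xaf1, at 4.54 with a ratio of 0.967, for Ifit2, at 5.99 with a ratio of 0.898, and for B2m, at 9.68 with a ratio of 0.830.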

How the results depend on the processing

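The count of genes higher in IP than in input stayed at 30 to 32 of 34 in PMCA mice and control mice under all alternatives run, and no called gene turned its direction. With the replicate block (the mouse) 32 were higher and 1 lower in PMCA mice, 31 and 1 in control mice, and 0 and 0 for the difference of the PMCA effect. The 1 gene lower in PMCA mice, Ifi27l2a, became 0 with no filter on low values and with no mean-variance trend, and 0 to 1 with 1 mouse left out. For PMCA against control in IP, the count lower was 1, but 0 with no filter and with no trend, 6 with the number set as a block, 8 with control 4 placed by its source name, 9 within the lower numbers by either placement, and 0 to 6 with 1 mouse left out, the 6 being without PMCA 4. The count higher was 0, but 2 without control 4 and 0 without each other mouse. In input the count lower was 0, but 10 with the number set as a block, 1 with control 4 by its source name and 10 within the lower numbers. The count higher in input was 0, but 3 with the number set as a block, 2 within the lower numbers and 0 to 8 with 1 mouse left out, the 8 being without control 4. The cause of these changes was not tested. The block with control 4 by its source name was not run for control mice, whose 4 mice then form 1 set. Each of the 34 genes had at least 197 reads in every library, and there were 4 mice a group.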
